A study of Homo sapiens with 32 samples.

Results

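MDA-MB-231 is a long-established line of human breast cancer cells. Its deposited decay rates, 1 per transcript for each of 4 replicate series, are described here within that line alone. The members are the 16 of 32 libraries labelled MDA-MB-231 and all 14193 transcripts of the rate table of this line, whether or not the lung-metastatic derivative MDA-LM2 has a rate for them. Cells were given 4-thiouridine (4sU), a uridine analogue that is built into new RNA, for 2 h. The 4sU was then replaced by an excess of plain uridine, and the labelled RNA was precipitated at 0, 2, 4 and 7 h and sequenced, with 4 libraries at each time. The labels name no treatment of these cells other than the 4sU pulse and the uridine chase. The series are named 1_1, 1_2, 2_1 and 2_2 after their labels, each covers the 4 times, and errors are SDs over the 4 series.

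A positive rate is read here as a fall of the labelled transcript during the chase, and a rate near 0 or below it as abundance that held or grew on the authors' scale. A rate of 0 is not the level of the other transcripts, since the median rate was above 0 in all 4 series. The unit is that of the authors. The sources used here do not give its log base or scaling, so rates are not turned into half-lives. A transcript counts as in range when all 4 of its rates lie within 1 of 0, which held for 8852 transcripts (62.4%) of 8113 genes. The other 5341 (37.6%) are described apart. They matter for the reading of fast classes, since a transcript with any rate above 1 is absent from the ranking.

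The steady level of an mRNA depends on how fast it is made and how fast it is destroyed. In most mammalian mRNAs decay begins with shortening of the poly(A) tail, followed by removal of the cap and digestion from either end. Transcripts of growth-induced regulators and cytokines are textbook examples of short-lived mRNAs, and many carry AU-rich elements in the 3′ UTR, to which proteins that recruit deadenylases bind. Transcripts of the ribosome, of glycolysis and of the respiratory chain are textbook examples of long-lived ones.

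To show what an AU-rich site looks like in transcripts with high rates in these cells, the first TATTTAT of the 3′ UTR is printed for 6 genes, each as 30 bases of the sense strand with the motif in capitals. The genes were picked after their rates were seen. DUSP1 is a phosphatase of MAP kinases, CCN1 a secreted matrix protein, LIF a cytokine, HBEGF and TGFA ligands of the EGF receptor, and PPP1R15A a stress-induced phosphatase subunit. The sequences come from GENCODE release 29 transcripts on GRCh38, and all 6 sites are exonic, in the 3′ UTR.
DUSP1: agggctggtcctTATTTATttaacttcacc
CCN1: gactgaatgtttTATTTATcaaaatgtagc
LIF: tggcatgatttcTATTTATtatgatatcct
HBEGF: tcttaaattataTATTTATtttattctatg
TGFA: gagatgatgtctTATTTATtagatggataa
PPP1R15A: taatttattaacTATTTATtttttctaagt
The DUSP1 site is at chr5:172768643-172768672 on the minus strand, the HBEGF site at chr5:140333678-140333707 on the minus strand and the TGFA site at chr2:70450233-70450262 on the minus strand. The LIF site is at chr22:30242572-30242601 on the minus strand. The CCN1 site at chr1:85583558-85583587 and the PPP1R15A site at chr19:48875992-48876021 are on the plus strand. The 3′ UTR held 5 such motifs in LIF, 3 in DUSP1, 2 in each of CCN1, HBEGF and TGFA, and 1 in PPP1R15A. The motif is common: 35.0% of the 7698 3′ UTRs of at least 50 bases in range held it on the sense strand. A match is a description of letters and not evidence that a protein binds there.

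Rates in range were similar in level across the series. Their median was 0.148 in series 1_1, 0.137 in 1_2, 0.173 in 2_1 and 0.147 in 2_2 (mean 0.151 ± 0.0154, n = 4), so 2_1 was the highest and 1_2 the lowest. The width between the quartiles was 0.159 ± 0.00283. In range, 457 transcripts (5.16%) had a mean rate below 0, and 89 had all 4 rates below 0. The ranks of transcripts were shared most by series with the same second number. Across the 8852 transcripts, Spearman's rho was 0.772 between 1_1 and 2_1 and 0.623 between 1_2 and 2_2, against 0.295 to 0.439 in the other 4 pairs. The points of each correlation are transcripts of the same libraries and are not independent. The sources used here do not say what the second number stands for or whether the series came from separate cultures. The p-values therefore measure no more than the spread among the 4 series, which may be technical. Read depth is unknown.

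No transcript in range passed the test planned for single transcripts. In a two-sided limma fit of each rate minus the median of its series, with a correlation of 0.427 between series that share the second number and Benjamini-Hochberg adjustment over 8852 transcripts, 0 were called faster and 0 slower (0% each), and the smallest adjusted p was 0.146. At an unadjusted limma p of 0.05, 1043 (11.8%) were faster and 1176 (13.3%) slower. Taking the series as independent, limma called 236 faster and 476 slower. With all 14193 transcripts in the correlated fit it called 395 faster and 147 slower. A plainer rule, added after that result, is therefore used for counts: a transcript lay above, or below, the median of its series in all 4 series. Of the transcripts in range 2049 (23.1%) lay above in all 4 and 1990 (22.5%) below in all 4, and the counts of each gene list are to be read beside these shares. The rule is a description with no error rate. Lists were written with earlier results of these data known.

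Immediate early genes, induced within minutes of a growth stimulus, had high rates. Most of the list are transcription factors, and it also holds RNA-binding regulators and the secreted matrix proteins CCN1 and CCN2. Of 22 transcripts of this list 9 were in range, and all 9 lay above the median in all 4 series, against 23.1% of all transcripts in range. Their list median was 0.369, 0.363, 0.353 and 0.334 in series 1_1, 1_2, 2_1 and 2_2 (0.355 ± 0.0156, n = 4), above the 0.151 of all transcripts in every series. BHLHE40, a repressor of the clock and of hypoxic genes, led them at 0.436, 0.857, 0.611 and 0.958 (0.716 ± 0.236). Both of its _2 series were higher than both of its _1 series. FOSL1, a subunit of the AP-1 factor, was at 0.308, 0.363, 0.272 and 0.283 (0.307 ± 0.0407). SRF, which drives much of the immediate early response, was the lowest of the 9, at 0.189, 0.297, 0.247 and 0.295 (0.257 ± 0.0508). The remaining 13 transcripts were out of range, so the 9 are not the whole class.

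Secreted growth factors and cytokines formed the list with the highest median, 0.439, 0.417, 0.484 and 0.385 (0.431 ± 0.0417, n = 4). Only 8 of its 26 transcripts were in range, and 6 of these lay above the median in all 4 series and 0 below. Among members with all rates within 0.5 of 0 the list median was 0.229. TGFA was at 0.760, 0.446, 0.798 and 0.678 (0.670 ± 0.158), with series 1_2 the lowest. LIF was at 0.441, 0.387, 0.637 and 0.547 (0.503 ± 0.111), and both 2_1 and 2_2 were higher than both 1_1 and 1_2. FGF2, a fibroblast growth factor, was at 0.440, 0.453, 0.528 and 0.456 (0.469 ± 0.0399). HBEGF was at 0.438, 0.472, 0.439 and 0.499 (0.462 ± 0.0294), and no series stood apart. CCL5, a chemokine, was the exception at the low end, at 0.205, 0.0211, 0.0233 and 0.122 (0.0929 ± 0.0884), with series on both sides of their medians. In 3′ UTRs of list members in range, 6 of 7 held TATTTAT, as did 6 of 8 among the immediate early genes, against 35.0% of all. The share among all 3′ UTRs rose with their length. In groups of equal size from the shortest to the longest 3′ UTRs, 9.09%, 22.5%, 40.0% and 68.5% held the motif. The list members were not matched for length, so the comparison with 35.0% does not show that the motif is particular to these lists.

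Feedback phosphatases and cell cycle switches also had members with high rates. Of 6 dual-specificity MAP kinase phosphatases in range, 3 lay above the median in all 4 series and 0 below. DUSP1 was at 0.625, 0.521, 0.810 and 0.419 (0.594 ± 0.167), and its spread was wide. DUSP4, a nuclear phosphatase of ERK, was at 0.293, 0.294, 0.309 and 0.310 (0.302 ± 0.00922), and its 4 values nearly coincided. Among G1 cyclins, cyclin-dependent kinases and their inhibitors, 7 of 15 lay above and 1 below. CCNE2, a cyclin of S phase entry, was at 0.361, 0.477, 0.385 and 0.515 (0.434 ± 0.0732). RB1, the retinoblastoma protein that cyclin-dependent kinases inactivate, was the single low member, at 0.0546, 0.0455, 0.109 and 0.0988 (0.0770 ± 0.0316). Of 8 transcripts of the p53 network in range, 4 lay above and 1 below, among them PPM1D, a phosphatase that switches p53 signalling off, at 0.522, 0.402, 0.464 and 0.516 (0.476 ± 0.0560). MCL1, an anti-apoptotic member of the BCL2 family, was at 0.553, 0.305, 0.515 and 0.323 (0.424 ± 0.128), with both _1 series above both _2 series.

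Zinc finger (ZNF) and histone genes were the larger classes with high rates. Of 411 ZNF transcripts 189 (46.0%) were out of range, against 37.6% of all transcripts. Of the 222 ZNF transcripts in range 102 (45.9%) lay above the median in all 4 series and 13 (5.86%) below. Their list median was 0.242, 0.204, 0.276 and 0.214 (0.234 ± 0.0325, n = 4), higher than the median of all transcripts in each series. ZNF569 was at 0.611, 0.574, 0.672 and 0.736 (0.648 ± 0.0708), and ZNF480 at 0.820, 0.699, 0.870 and 0.373 (0.690 ± 0.224) with series 2_2 well below the rest. ZNF764 went the other way, at -0.431, -0.328, -0.216 and 0.0105 (-0.241 ± 0.189). ZNF395, named because the study is known for it, was at 0.260, 0.179, 0.242 and 0.183 (0.216 ± 0.0411). Of 40 histone transcripts in range, 27 (67.5%) lay above and 2 (5%) below. H1-4, a linker histone, was at 0.606, 0.515, 0.682 and 0.354 (0.539 ± 0.141). H3C10, a core histone made in S phase, was at 0.384, 0.432, 0.401 and 0.457 (0.418 ± 0.0326). The 2 histone transcripts below the median in all 4 series were both of H2AZ2, a replication-independent variant, at means of 0.0959 ± 0.0589 and -0.0327 ± 0.136.

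Cytosolic ribosomal protein transcripts had the lowest list median among the 52 lists with at least 3 transcripts in range. It was 0.0431, 0.0473, 0.0697 and 0.0537 (0.0534 ± 0.0117, n = 4). Of 102 transcripts in range 81 (79.4%) lay below the median in all 4 series, against 22.5% of all transcripts, and 4 (3.92%) above. RPL13A, a large-subunit protein, was the highest at 0.180, 0.265, 0.367 and 0.471 (0.321 ± 0.126). Of the 3 RPL17 transcripts in range, which come from the same gene, NM_001199344 was at -0.182, -0.126, -0.00851 and -0.197, NM_001035006 at 0.0892, 0.113, 0.0939 and 0.115, and NM_001199340 at 0.102, 0.281, 0.130 and 0.220. Mitochondrial ribosomal proteins had a higher median, 0.136 ± 0.0149, with 14 of 62 (22.6%) below and 6 (9.68%) above. Aminoacyl-tRNA synthetases, which charge tRNAs, were at 0.139 ± 0.0264. General translation factors lay between, at 0.117 ± 0.0123 with 23 of 54 (42.6%) below.

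Glycolytic enzymes had the next lowest list median. The 19 glycolytic transcripts in range had a list median of 0.0547, 0.0581, 0.0794 and 0.0597 (0.0630 ± 0.0111, n = 4), with 9 below the median in all 4 series and 0 above. It was 0.109 when only genes with 1 transcript in the table were taken, and 0.100 with out-of-range transcripts included. GAPDH (NM_002046), the glyceraldehyde-phosphate dehydrogenase, was at 0.0331, 0.0224, 0.0452 and 0.0431 (0.0359 ± 0.0105). PGAM1, the phosphoglycerate mutase, was at 0.0280, 0.0129, 0.0468 and 0.0103 (0.0245 ± 0.0168). Both lay below the median in every series by more than their spread. Nuclear-encoded subunits of oxidative phosphorylation had a median of 0.0800 ± 0.0279, with 33 of 68 (48.5%) below and 1 above. COX6B1, a cytochrome c oxidase subunit, was at -0.00742, -0.234, -0.00967 and -0.146 (-0.0994 ± 0.111), with the _2 series lower than the _1 series. Enzymes of the TCA cycle were not as low, at 0.136 ± 0.0324 with 4 of 22 below and 2 above.

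Among the lists of protein turnover and secretion, the proteasome and the early secretory pathway had the lowest medians. Some others were also low, and others were near the level of all transcripts. Of 43 transcripts of the proteasome, which degrades ubiquitin-tagged proteins, 22 (51.2%) lay below the median in all 4 series and 2 above, with a list median of 0.0701, 0.0903, 0.104 and 0.0932 (0.0894 ± 0.0141, n = 4). PSME1, an activator subunit, was at -0.0678, -0.0860, -0.00148 and -0.00535 (-0.0401 ± 0.0431). PSMD7, a lid subunit, was on the other side at 0.184, 0.230, 0.269 and 0.201 (0.221 ± 0.0373). For the translocon, glycosylation enzymes and COP coats, 26 of 51 (51%) lay below and 1 above, with a median of 0.0970 ± 0.0260. For lysosome and V-ATPase genes, 17 of 40 (42.5%) lay below and 1 above, with a median of 0.101 ± 0.0138. Chaperonin CCT subunits were at 0.107 ± 0.00865, with 6 of 11 (54.5%) below and 0 above. Genes of the unfolded protein and ATF4 response were at 0.115 ± 0.0101, with 12 of 23 (52.2%) below and 6 (26.1%) above. CALR, a chaperone of the endoplasmic reticulum, was at 0.0460, 0.0642, 0.0812 and 0.0637 (0.0638 ± 0.0144). Heat shock proteins and DNAJ cochaperones were at the level of all transcripts (0.150 ± 0.00976), with 15 of 59 above and 15 below. So were ubiquitin-conjugating enzymes (0.148 ± 0.0212), deubiquitinases (0.146 ± 0.0220) and RAB and ARF GTPases (0.151 ± 0.0116).

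**Figure D1:**
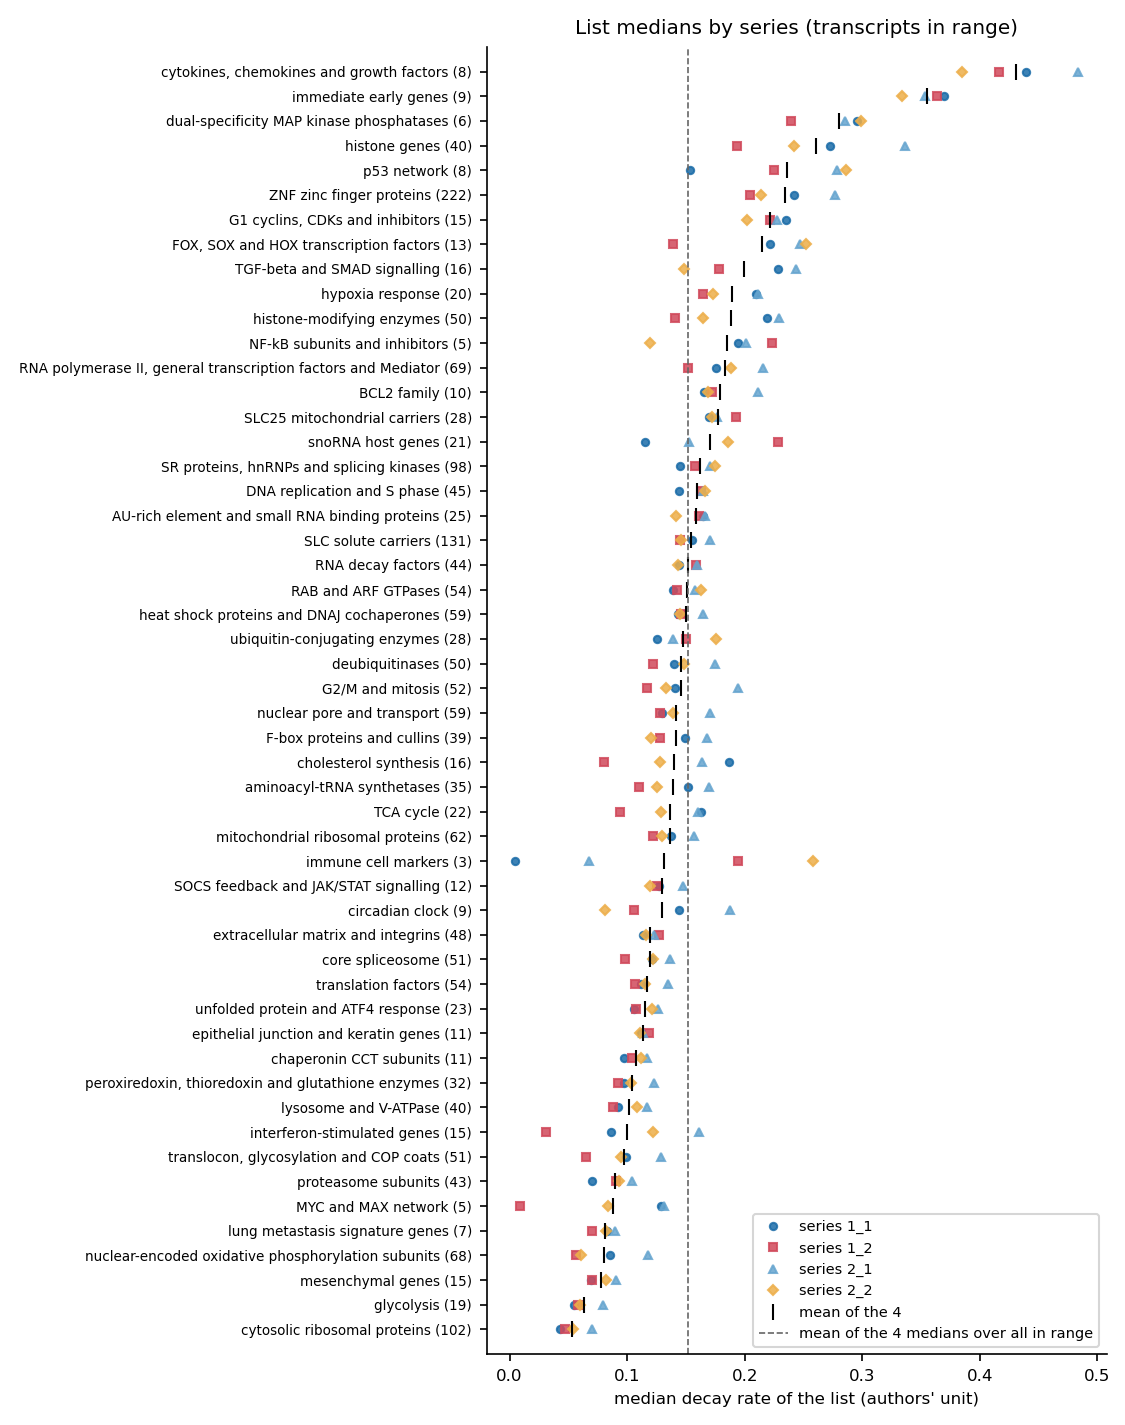
Median decay rate (x axis, authors' unit) of each gene list with at least 3 transcripts in range (y axis, number of transcripts in parentheses), 1 symbol per series, with the mean of the 4 as a tick and the 0.151 of all transcripts in range as a dashed line. The lists run from cytokines and growth factors at 0.431 to cytosolic ribosomal proteins at 0.0534, and the 4 series of these lists do not reach the dashed line.

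Rates of 3 abundant cytoskeletal transcripts, picked after their values were seen, were low. ACTB, beta-actin, was at 0.0693, 0.0488, 0.0914 and 0.0403 (0.0625 ± 0.0228). VIM, the mesenchymal intermediate filament protein vimentin, was at 0.0692, 0.0752, 0.0909 and 0.0721 (0.0768 ± 0.00969). TUBA1B, an alpha-tubulin, was at 0.0651, 0.0283, 0.109 and 0.0635 (0.0665 ± 0.0331). All 3 lay below the median of every series. SNRPD2, a core snRNP protein, was lower still, at -0.0876, -0.113, -0.0473 and -0.105 (-0.0883 ± 0.0294), and 19 of 51 core spliceosome transcripts (37.3%) lay below with 6 above. SR proteins, hnRNPs and splicing kinases were at the level of all transcripts, 0.162 ± 0.0134, but the kinases CLK1 (0.437 ± 0.149) and CLK2 (0.425 ± 0.112), which phosphorylate SR proteins, lay above in all 4 series. KIF14, a mitotic kinesin, was the lowest of the G2/M list, at 0.0127, 0.00615, 0.0234 and -0.00295 (0.00983 ± 0.0111), whereas that list as a whole was at 0.146 ± 0.0335.

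Of the genes that mark cell types, only the presence of a rate can be read, since the table holds no levels. Rates existed for 10 of 14 mesenchymal genes and 18 of 29 epithelial junction and keratin genes. Of 9 luminal and hormone receptor markers 2 had a rate, XBP1 and ERBB2. Of 14 immune cell markers 3 had a rate, and of 13 endothelial and fibroblast markers 1, which was out of range. The mesenchymal list had a median of 0.0780 ± 0.0104, with 7 of 15 transcripts below and 2 above. It was 0.148 with out-of-range transcripts included and 0.155 from genes with 1 transcript in the table. SPARC, a matrix glycoprotein, was at 0.0831, 0.0699, 0.0898 and 0.0820 (0.0812 ± 0.00828). SNAI2, a repressor of epithelial genes, was at the high end of that list at 0.457, 0.476, 0.481 and 0.365 (0.445 ± 0.0541), and its lowest series was still above every series of SPARC. KRT81, a hair keratin, was at -0.0237, -0.00520, -0.0287 and -0.0245 (-0.0205 ± 0.0105).

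The planned rule named the 12 fastest and 12 slowest genes past the limma threshold. As none passed it, the condition was replaced, after the values had been seen, by lying on 1 side of the median in all 4 series. PRICKLE1, a planar cell polarity protein, was the highest at 0.765, 0.807, 0.803 and 0.729 (0.776 ± 0.0364), and its series nearly coincided. TFCP2, a transcription factor, was at 0.763, 0.657, 0.814 and 0.682 (0.729 ± 0.0726). After BHLHE40 came C10orf88 at 0.592, 0.679, 0.822 and 0.727 (0.705 ± 0.0960), ZNF480, and CSTF2T, an mRNA 3′ end cleavage factor, at 0.793, 0.548, 0.611 and 0.750 (0.676 ± 0.115). TGFA, RP9, RAB42, ZNF569, RTEL1 and MTERF1 completed the 12, down to a mean of 0.635. RTEL1, a telomere helicase, had 1 series near the median of all transcripts, 0.157 in 1_1, beside 0.929, 0.851 and 0.644. Adjusted p-values of the 12 in the limma fit with Benjamini-Hochberg adjustment ran from 0.146 to 0.223. Of the 100 fastest transcripts 12 were ZNF transcripts, and of the 100 slowest 4, against 2.51% of all in range.

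The slow end held transcripts with negative rates and wide spread. PLA2G7, a secreted phospholipase, was the lowest at -0.481, -0.0290, -0.567 and -0.513 (-0.397 ± 0.248). A transcript of PCBP2, a poly(C)-binding protein, followed at -0.559, -0.0880, -0.331 and -0.477 (-0.364 ± 0.207). Next was RABL2A, a small GTPase, at -0.974, -0.117, -0.171 and -0.177 (-0.360 ± 0.411), and without series 1_1 its mean was -0.155. In PLA2G7 and RABL2A 1 series thus lay far from the other 3. UBE2J2, a ubiquitin-conjugating enzyme, had closer values at -0.466, -0.323, -0.242 and -0.191 (-0.306 ± 0.120). SNAP25, PCYOX1L, MT1JP, EIF2D, PGM1 and NIPAL2 were also among the 12 slowest, up to a mean of -0.264. Limma adjusted p-values of the 12, with Benjamini-Hochberg adjustment, ran from 0.25 to 0.673. Of the 100 slowest transcripts 27 belonged to genes with 2 or more transcripts in range, as did 12 of the 100 fastest, against 12.9% of all.

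**Figure D2:**
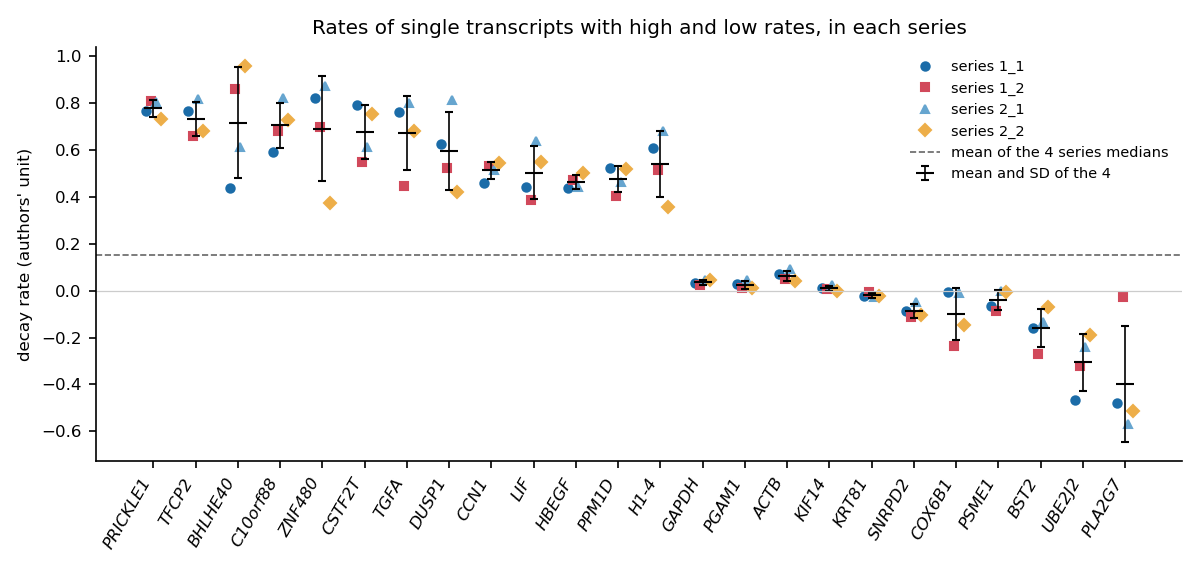
Decay rates (y axis, authors' unit) of single transcripts, 1 symbol per series, with the mean and SD of the 4 series in black and the 0.151 of all transcripts in range as a dashed line. Transcripts with high rates stand on the left, and on the right are transcripts with rates close to 0, followed by the slow end, where PLA2G7 spans -0.567 to -0.0290.

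Among transcript features, the density of exon junctions in the coding sequence went with the rate. Features were taken from GENCODE for 7894 protein-coding transcripts in range and cut into 4 groups of equal size. In the group with the fewest junctions per kb of coding sequence (up to 4.60), the median rate was 0.203, 0.182, 0.231 and 0.196 in the 4 series (0.203 ± 0.0208). It was 0.154 ± 0.0178 in the next group, 0.134 ± 0.0139 in the third and 0.126 ± 0.0140 in the group with the most (8.03 or more). The order was the same in all 4 series. Above the median in all 4 series lay 38.1% of transcripts in the lowest group and 14.8% in the highest, against 23.1% of all, while 11.3% and 31.4% lay below. Across transcripts Spearman's rho between junction density and rate was -0.181 to -0.243 in the 4 series (n = 7894, with features and libraries shared). The 278 transcripts with no junction inside the coding sequence were at 0.218 ± 0.0329 and those with junctions at 0.149 ± 0.0152.

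The classes differ in this feature as well. The median junction density was 0 per kb in the histone list and 1.72 in the ZNF list, but 7.94 in the cytosolic ribosomal proteins and 8.06 in the proteasome. Without the ZNF, histone and both ribosomal protein lists, an alternative added after seeing the data, the lowest group was at 0.198 ± 0.0191 and the highest at 0.128 ± 0.0139. A class can also depart from it: immediate early genes in range had 3.36 junctions per kb, but cytokines and growth factors 6.67 with the highest list median of all.

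Other features went with the rate less, or only over part of their range. Transcripts with the shortest 3′ UTRs, up to 431 bases, had a median of 0.124 ± 0.0150, against 0.153 ± 0.0140, 0.164 ± 0.0132 and 0.158 ± 0.0177 in the following groups. Within the shortest 3′ UTRs of at least 50 bases, the 175 with TATTTAT were at 0.151, 0.142, 0.186 and 0.168 and the 1750 without it at 0.117, 0.112, 0.146 and 0.119, so the motif went with a rate higher by 0.0383 ± 0.00817, in the same direction in all 4 series. Transcripts with and without it were at 0.158 and 0.151 in the second group of 3′ UTR length, and at 0.163 and 0.165 in the third. In the longest 3′ UTRs the 1319 with it and the 606 without it were both at 0.158. Length within a group was not matched. The Pumilio-type motif TGTANATA was in 30.3% of 3′ UTRs on the sense strand. Transcripts with and without it were at 0.153 ± 0.0138 and 0.124 ± 0.0164 in the shortest group, and at 0.166 ± 0.0172 and 0.150 ± 0.0130 in the second. They were at 0.172 ± 0.0110 and 0.160 ± 0.0148 in the third, and at 0.157 ± 0.0181 and 0.161 ± 0.0184 in the longest. Rates were thus higher with this motif in all 4 series in every group but the longest. GC content showed no order, with medians from 0.149 to 0.154 over its 4 groups. Coding sequences of up to 876 bases were at 0.131 ± 0.0172 and longer ones at 0.153 to 0.163.

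**Figure D3:**
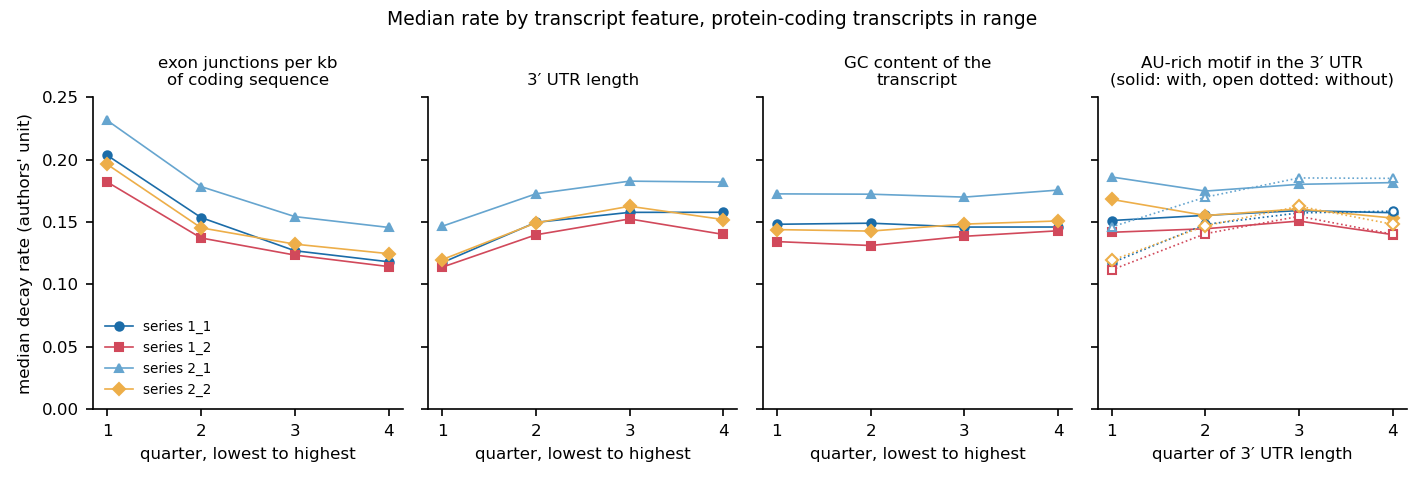
Median decay rate (y axis, authors' unit) of protein-coding transcripts in range, in 4 groups of equal size from the lowest to the highest value of junction density, 3′ UTR length and GC content, 1 line per series. The last panel splits each group of 3′ UTR length by the presence of TATTTAT. Lines with and without it are apart in the shortest group (0.162 against 0.124) and close in the second (0.158 against 0.151). In the third the order is reversed (0.163 against 0.165), and in the longest they meet.

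The 274 lncRNAs in range had a median of 0.163, 0.189, 0.198 and 0.180 (0.182 ± 0.0147, n = 4), and protein-coding transcripts 0.151 ± 0.0154. Above the median in all 4 series lay 29.9% of lncRNAs and 23.0% of protein-coding transcripts, and below it 15% and 22.9%. MALAT1, an abundant nuclear RNA, was at 0.122, 0.0707, 0.159 and 0.0960 (0.112 ± 0.0378), below the median in every series. NEAT1, the scaffold RNA of paraspeckles, was at 0.453, 0.0428, 0.346 and 0.262 (0.276 ± 0.174), with series 1_2 below its median and the others above.

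Transcripts of the same gene could have unlike rates. In range, 523 genes had 2 or more transcripts, and the median difference between the highest and the lowest mean of a gene was 0.116. In 126 of them (24.1%) the 4 rates of one transcript were all above the 4 rates of the other, a share that rests on picking the extremes. The largest difference was in PCBP2, where NM_031989 was at 0.525, 0.497, 0.425 and 0.694 (0.535 ± 0.114), all above the transcript named at the slow end, a difference of 0.899. PHKG2, a phosphorylase kinase subunit, ARPC4, an actin nucleation subunit, TMCO1, a membrane calcium channel, and IMMT, a mitochondrial inner membrane organiser, followed with 0.753, 0.586, 0.556 and 0.537. In PHKG2 and IMMT the series overlapped. FBXW7, the substrate receptor of a ubiquitin ligase, had NM_033632 at 0.397, 0.335, 0.440 and 0.514 and NM_001257069 at -0.0577, -0.251, -0.00474 and -0.136, with no overlap. PKM and CD44, known for alternative exons, had differences of 0.309 and 0.171 whose series overlapped. How reads were divided between transcripts of a gene is not stated in the sources used here, and its part in these differences was not tested.

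**Figure D4:**
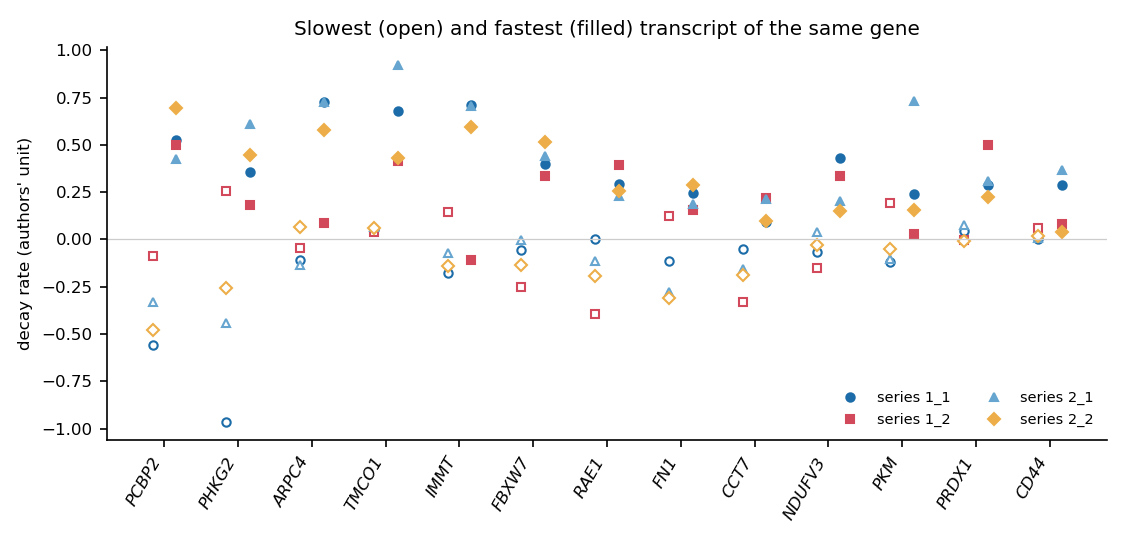
Decay rates (y axis, authors' unit) of the slowest (open symbols) and fastest (filled symbols) transcript in range of 13 genes (x axis), 1 symbol per series. The first 5 genes have the largest differences of all, from 0.899 in PCBP2 to 0.537 in IMMT, and in PHKG2, IMMT, PKM and CD44 open and filled symbols overlap.

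Rates beyond 1 of 0 made up 21.6% ± 1.14 of values in a series, 19.1% above 1 and 2.52% below -1. They formed clusters and not a steadily thinning tail, but no gap lay at the bound itself. In series 1_1, 68 rates lay from 0.75 to 1 and 129 from 1 to 1.25. On the negative side 19 lay from -1 to -0.75 and 21 from -1.25 to -1. Of 10824 rates above 1, 4560 lay between 1 and 3.5, none between 3.5 and 5, and 5776 (53.4%) between 9 and 10. On the negative side 803 lay between -3 and -1 and 417 between -10 and -8. Of the 5341 transcripts out of range, 1487 had 1 such rate, 1824 had 2, 1002 had 3 and 1028 had 4. Where exactly 2 rates were above 1, as in 1892 transcripts, they were both _1 series in 803, both _2 series in 831, and series of unlike second number in 258.

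**Figure D5:**
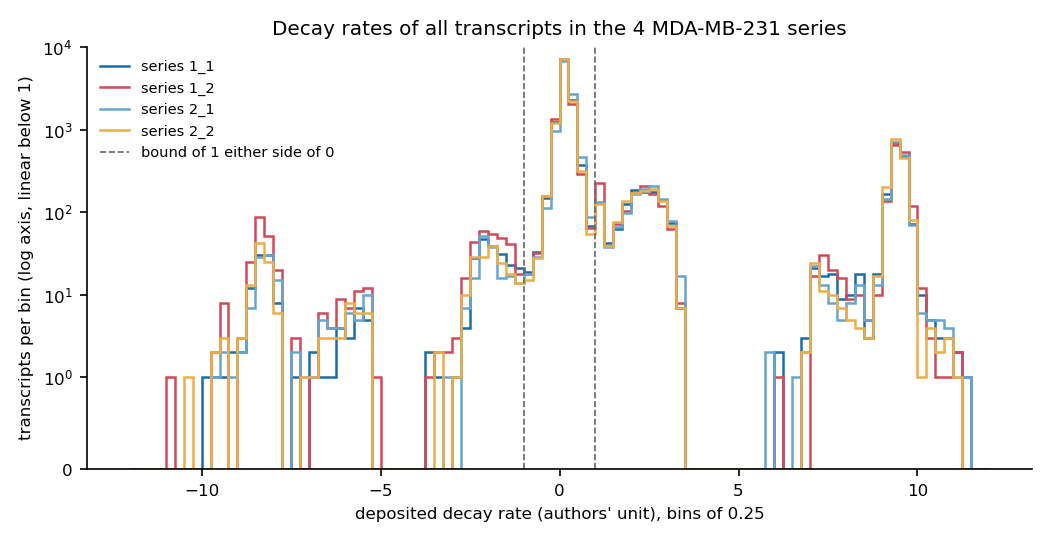
Number of transcripts (y axis, log scale above 1) by decay rate (x axis, authors' unit, bins of 0.25) in each series, with dashed lines at the bound of 1 either side of 0. The main peak lies just above 0, and further groups of rates stand between 1 and 3.5, around 9.5 and, lower, on the negative side. None lie from 3.5 to 5, but the bins on either side of the bound are not empty.

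Some textbook short-lived mRNAs were among the 836 of 14193 transcripts with all 4 rates above 1, named here after their values were seen. The 836 held 2 of 22 transcripts of the immediate early list and 3 of 26 of the cytokine list. They also held 6 of 33 transcripts of interferon-stimulated genes, whose list median in range was below that of all transcripts. IER2, an immediate early gene, was at 9.14, 9.09, 9.17 and 9.11. ID3, an inhibitor of helix-loop-helix factors, was at 9.64, 9.55, 9.66 and 9.65, and NFKBIA, the inhibitor of NF-kB, at 9.71, 9.61, 9.76 and 9.73. All 12 of these rates lie in the narrow cluster at 9 to 10, so their small spread is no measure of precision. CSF1, CXCL2, GADD45A and DDIT4 were also at means of 9.02 to 9.45, but so were transcripts of unlike kind, such as EEF1B2, a translation elongation factor, at 9.60 and XPC, a DNA repair protein, at 9.65. A second transcript of GAPDH, NM_001256799, was at 3.00, 2.83, 3.06 and 2.87, far above the 0.0359 of the main one. Within 1 gene, 1 series could be in a cluster and the rest in range: JUN was at 0.631, 0.404, 9.67 and 0.415, KLF10 at 0.447, 0.485, 0.554 and 9.91, and IER3 at 0.221, 9.60, 0.416 and 0.317. CXCL8 had the reverse, 9.62, 9.62 and 9.67 beside 0.319 in series 2_2. Out of range were 69.2% of the cytokine list, 66.7% of the p53 network and 59.1% of the immediate early list, against 37.6% of all transcripts and 14.3% of the cytosolic ribosomal proteins. High shares were also found in lists with low medians in range. They were 64.3% in the MYC and MAX network (median 0.0881) and 54.5% in interferon-stimulated genes (0.0999).

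Of the other genes the study is known for, TARBP2, a double-stranded RNA-binding protein, could not be ranked, at 0.154 and 0.101 in the _1 series and 9.51 and 9.52 in the _2 series. The APP transcripts, for the amyloid precursor protein, were also out of range. NM_001136130 was at 0.809, 10.0, 0.101 and 9.93, and NM_201413 at 1.99, -0.376, 2.22 and 0.0759. Both had a rate in a cluster in 1 pair of series with the same second number and not in the other pair.

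Transcripts of genes with several rows, and short transcripts, were more often out of range in this table. Of transcripts whose gene had a single row, 27.8% of 9164 were out of range, against 54.8% of 3320 for genes with 2 rows and 59.6% of 1472 for genes with 3 or more. By length, 44.8% of protein-coding transcripts of up to 1894 bases were out of range, and 24.8% of those of 4639 bases or more. Just inside the bound stood SAR1B, with a highest rate of 0.999, SNHG7 (0.997), PCGF5 (-0.990) and HAUS8 (0.989), and just outside it CDT1 (1.00148), FZD2 (1.00255) and CRBN (1.00765).

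The 1227 transcripts with no row in the MDA-LM2 table were unlike the rest of this table. Only 181 of them (14.8%) were in range, against 66.9% of the 12966 with a row in both. Their share of rates above 1 was 45.6% ± 2.88, against 16.6% ± 0.630. Those in range had low rates, with a median of 0.0722, 0.0532, 0.111 and 0.0626 in series 1_1, 1_2, 2_1 and 2_2 (0.0747 ± 0.0252, n = 4), below the 0.153 ± 0.0155 of the others in every series. Of the 181, 59 (32.6%) lay below the median in all 4 series and 12 (6.63%) above. A mean rate below 0 was found in 60 of them (33.1%), against 5.16% of all transcripts in range.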

How the data were processed

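Human MDA-MB-231 cells gave 16 libraries of 4sU-labelled RNA. The authors deposited 1 decay rate per transcript and series, estimated from the fall of abundance over the times, per the labels. These deposited rates, which are not counts and whose log base is not given, were used unchanged. TopHat, Cufflinks and hg18 are named in the submitters' processing notes. How zeros were treated is not given in the sources used here. Gene members and lists were chosen with earlier results of these data known.

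Symbols came from RefSeq (13827 accessions) and GENCODE (129), and 237 had none. Of the accessions, 13480 were paired with a GENCODE release 29 transcript (GRCh38), and 12061 protein-coding ones got coding and 3′ UTR features. The pairing is approximate, since several accessions can share a transcript. Coding sequences under 150 bases and, for motifs, 3′ UTRs under 50 bases were left out. The sense strand was searched for TATTTAT, which contains the shorter pentamer ATTTA, and for the Pumilio-type motif TGTANATA.

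The test was limma 3.58.1 (R 4.3.3; one-sample, variance trend, second label number as correlated block, Benjamini-Hochberg threshold 0.05) on transcripts within 1 of 0. Tested on simulated data with the same SD for every transcript, it recovered large shifts. A first trial with small shifts and each transcript's own SD recovered none. Real transcripts differ in SD, so these trials do not show that large shifts are found in these data. PRICKLE1, at 0.625 above the series medians, had a limma adjusted p of 0.146. In the simulated data, with or without the correlation, the share of false calls exceeded the threshold. A count of 0 thus does not show that rates are alike, and counts above 0 hold false calls. Lists, features and isoforms have no test. Named genes were the 12 fastest and 12 slowest, the 3 fastest and slowest of a list, the 5 largest isoform differences, transcripts at the bound, and APP, ZNF395 and TARBP2. Some of these are not reported here, and housekeeping, lncRNA, out-of-range and some isoform examples were added after their values were seen. Alternatives were the bound, centring, trend, correlation, 1 value per gene and each series left out. Tables were handled in Python 3.11.15 with pandas 2.3.3. No column was left unmapped (0).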

Additional observations from a re-analysis of the deposited data

Results flagged for a closer look

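In 7 of 152 sets of 4 series checked, 1 series stood apart from the other 3 by more than Dixon's 95% bound. With independent series chance alone would give about 1 in 20 (7.6). Series that share the second number are correlated, so the 7 cannot be judged against that figure. The share of rates below -1 was 3.83% in series 1_2, against a mean of 2.08% in the other 3. In series 2_1 the median of the BCL2 family was 0.211 (0.169 in the others), that of heat shock proteins and DNAJ cochaperones 0.164 (0.145), and HSP90B1, a chaperone of the endoplasmic reticulum, 0.0970 (0.0622). Series 2_1 also had the highest median over all transcripts. MTERF1 was at 0.243 in series 1_2, against 0.765 in the others, and PLA2G7 at -0.0290 in series 1_2, against -0.520. RABL2A was at -0.974 in series 1_1, against -0.155.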

How the results depend on the processing

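The count of single transcripts called by limma depended on 2 settings. Taken as independent series, 236 were faster and 476 slower, and with all transcripts 395 and 147. It stayed at 0 and 0 when centred on the mean, without the variance trend, within 0.5 of 0, with 1 value per gene and without each series in turn, where the correlation of the fit to all 4 series was kept. In each setting, and in one with genes of 1 transcript, the medians of cytosolic ribosomal proteins, oxidative phosphorylation, glycolysis and the proteasome lay below that of all transcripts in every series, and those of immediate early genes, cytokines and growth factors, histones and ZNF genes above. These 8 lists were picked after their values were seen. With all transcripts, medians were 0.185 over all, 0.437 for immediate early genes, 0.487 for cytokines and growth factors, 0.281 for ZNF genes, 0.100 for glycolysis and 0.111 for the proteasome. The difference by junction density was then 0.109, against 0.0776. Within 0.5 of 0, immediate early genes were at 0.314, cytokines at 0.229, the difference by junction density at 0.0632 and that by TATTTAT in short 3′ UTRs at 0.0262. From genes with 1 transcript in the table, added after seeing the data, glycolysis was at 0.109. Rates beyond 0.5, 2 and 5 of 0 made up 24.9%, 18.1% and 12.1%. Of 44 other lists, 26 medians moved by more than their SD with all transcripts, 7 with genes of 1 transcript and 3 within 0.5 of 0, and none with 1 value per gene or without any 1 series. The causes were not tested. No paired analysis was possible because only 1 line is described and no groups are compared. Read depth is unknown, so low precision of a rate cannot be told apart from a real spread.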
